A study of Mus musculus with 6 samples.

Results

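Genes that mark the liver, the pancreas, the stomach and the gut were examined in sorted cells made from mouse embryonic stem cells, to see which endoderm fates other than lung and thyroid were present. The members were 44 genes taken from a list of organ markers, 17 for liver, 7 for pancreas, 9 for stomach and 11 for gut, by gene symbol alone. Of these, 43 were measured, among 19938 genes in all, and Ins1 was not analysed here. The series holds 6 array samples from differentiated cells of the W4/129S6 background in which the Nkx2-1 locus carries a knock-in reporter for green fluorescent protein (GFP). Nkx2-1 is a transcription factor gene of lung, thyroid and ventral forebrain. After 14 days of differentiation the cells were sorted by GFP. The 3 Nkx2-1 high samples are the GFP-positive fraction (labelled Nkx2-1GFP+) and the 3 Nkx2-1 low samples the GFP-negative fraction (labelled Nkx2-1GFP-), so both groups come from cells with the reporter. The fractions are defined by 1 marker, and the labels name no further cell type.

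The epithelium of these organs comes from 1 germ layer, the definitive endoderm. Its anterior part, the foregut, gives rise to thyroid, lung, liver, pancreas and stomach, and its posterior part to the intestine. Each organ then switches on its own set of transcription factors and, later, of secreted or digestive products. Several liver products are also made by the yolk sac, whose visceral endoderm supplies the early embryo with carrier proteins and lipoproteins.

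Most of the organ markers were not above a level set from genes that these cells are not known to use. That level was taken from 1210 rows of olfactory and vomeronasal receptors, whose mean log2 expression had a median of 2.34 and a 95th percentile of 4.27. Of the 43 members, 15 had a group mean above 4.27 in at least 1 fraction (34.9%), where 67.8% of all genes did, and 28 did not. Both group means were below the receptor median of 2.34 in 3 of the 43, and in 1467 of all 19938 genes. Between the fractions, 0 members rose and 1 fell, Trf, with 3 higher at an unadjusted p under 0.05. By limma with Benjamini-Hochberg adjustment at 0.05, 6.0% of all genes differed, 2.90% higher and 3.09% lower in Nkx2-1 high. Among the 6425 genes not above the receptor level in either fraction the share was 1.03%. A single call in 43 is too few to set the members' share apart from that of all genes. The 28 members not above the level are among these dim genes, and Trf is not.

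The promoters below are examples and belong to 4 members. They are genes of albumin, the fibrinogen beta chain, a gastrokine of the stomach surface and a fatty acid-binding protein of liver and intestine. Each promoter is the 250 bases before the transcription start in RefSeq (build GRCm38.p6), written 5′ to 3′ along the gene. Alb lies at chr5:90460620-90460869, plus strand, and Fgb at chr3:83049864-83050113, minus strand. Gkn1 lies at chr6:87350916-87351165, minus strand, and Fabp1 at chr6:71199629-71199878, plus strand. Capitals mark matches on either strand to GTTAAT (an HNF1 half-site), TTGCNNAA (a C/EBP core), TTTATNG (CDX), TGTTTAC (FOXA) or CAAAGTCCA (HNF4).
Alb: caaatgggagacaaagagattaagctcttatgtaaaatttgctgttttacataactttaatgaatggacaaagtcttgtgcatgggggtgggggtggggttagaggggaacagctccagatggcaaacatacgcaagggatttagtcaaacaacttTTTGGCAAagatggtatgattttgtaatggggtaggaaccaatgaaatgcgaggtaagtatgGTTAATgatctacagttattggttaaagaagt
Fgb: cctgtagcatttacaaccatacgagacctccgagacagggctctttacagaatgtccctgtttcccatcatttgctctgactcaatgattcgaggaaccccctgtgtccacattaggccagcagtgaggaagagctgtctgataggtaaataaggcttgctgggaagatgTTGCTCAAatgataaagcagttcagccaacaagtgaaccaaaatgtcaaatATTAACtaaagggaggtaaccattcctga
Gkn1: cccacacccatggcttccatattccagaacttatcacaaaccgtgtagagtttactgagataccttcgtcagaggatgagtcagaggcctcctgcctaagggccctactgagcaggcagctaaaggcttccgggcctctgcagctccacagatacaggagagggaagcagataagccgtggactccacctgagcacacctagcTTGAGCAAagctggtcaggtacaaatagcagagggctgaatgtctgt
Fabp1: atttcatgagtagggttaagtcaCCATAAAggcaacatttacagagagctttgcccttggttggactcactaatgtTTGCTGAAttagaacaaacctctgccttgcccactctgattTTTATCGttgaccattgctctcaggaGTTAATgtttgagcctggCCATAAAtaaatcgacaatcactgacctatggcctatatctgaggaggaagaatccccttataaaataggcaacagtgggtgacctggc

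Alb and Fgb each held 1 HNF1 half-site, first base at -32 and -29 from the start, and 1 C/EBP core, at -94 and -80. Fabp1 held 3 CDX matches beside 1 HNF1 half-site and 1 C/EBP core, and Gkn1 held 1 C/EBP core. A promoter read in the same way, that of the pancreas member Gcg, is not shown and held no match to the motifs above. RefSeq promoters were matched for 35 of the 43 members by symbol, with the first entry of a gene used. The HNF1 half-site occurred in 10 of the 35 (28.6%), against 6.52% of 27025 promoters of the same length, and the C/EBP core in 10 of the 35, against 9.55%. By organ, the half-site was in 4 of 15 liver promoters, 3 of 6 of pancreas, 0 of 5 of stomach and 3 of 9 of gut. CDX matches occurred in 5 of the 35 (14.3%), against 10.2%, FOXA matches in 3 (8.57%), against 3.09%, and HNF4 matches in 0, against 0.381%. Motifs may overlap one another, and a match describes the letters and does not show that a factor binds.

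Of the 17 liver genes 5 were above the receptor level, namely Apoa1, Apoa2, Trf, Prox1 and Cebpa, while albumin, alpha-fetoprotein (Afp) and the clotting genes were not. Alb, which encodes the main carrier protein of blood, read 2.72, 2.81 and 2.95 in the Nkx2-1 high samples and 2.73, 2.62 and 2.71 in the Nkx2-1 low samples. Its fetal relative Afp, also a yolk sac gene, read 2.47, 2.57 and 2.72 against 2.46, 2.75 and 2.63. For both genes the fractions overlapped, and every value lay below 4.27. The 3 fibrinogen chain genes Fga, Fgb and Fgg, which share the clotting protein and neighbour one another in the genome, had group means of 3.73 and 3.51, 3.24 and 3.31, and 2.72 and 2.77, in Nkx2-1 high and Nkx2-1 low. Prothrombin (F2) had means of 3.87 and 3.79, and fetuin (Ahsg) of 3.29 and 3.29. None of these clotting and plasma genes differed between the fractions by limma, and 4 of the 5 had adjusted p-values from 0.711 to 0.990, with 0.380 for Fga. Fga was the only member with a second row, which differed by -0.08 where the row used differed by 0.22 ± 0.12.

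Carriers of lipids and retinol were split. Apoa1 and Apoa2, the main proteins of high-density lipoprotein, were above the receptor level in every sample. Apoa1 read 5.20, 5.32 and 5.16 in Nkx2-1 high and 5.22, 5.18 and 5.33 in Nkx2-1 low, and Apoa2 5.16, 4.85 and 5.09 against 5.02, 5.28 and 5.06. In both genes the fractions overlapped, with differences of -0.02 ± 0.08 (standard error, SE) and -0.09 ± 0.11. Apob, the scaffold of low-density lipoprotein, had means of 4.03 and 3.87, just under the level, and Apom, a minor lipoprotein component, of 3.04 and 2.92. Transthyretin (Ttr), a thyroid hormone carrier also made by yolk sac and choroid plexus, had means of 3.28 and 3.37, and its partner in retinol transport, Rbp4, of 4.03 and 4.01. None of these passed the test.

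Trf, which encodes the iron carrier transferrin, was the single member that changed. Its log2 expression was 4.80, 5.19 and 4.89 in the Nkx2-1 high samples and 5.35, 5.56 and 5.43 in the Nkx2-1 low samples. All 3 Nkx2-1 high samples lay below all 3 Nkx2-1 low samples, with the nearest pair at 5.19 and 5.35. Trf fell by 0.49 on the log2 scale (SE 0.11, 95% interval -0.74 to -0.24, limma adjusted p = 0.0308), which is 1.40-fold. In a two-sided exact permutation test p was 0.1, and 3 samples against 3 can give no smaller value. The call rested on most of the samples. When 1 sample was left out, it was kept only without Nkx2-1 high replicate 2 (limma adjusted p = 0.0163). Leaving out replicate 1 or 3 of Nkx2-1 high gave adjusted p-values of 0.107 and 0.0842, and leaving out replicate 1, 2 or 3 of Nkx2-1 low gave 0.0582, 0.116 and 0.0715. The difference ran from -0.60 to -0.41 in these fits. In bulk samples, fewer cells with a transcript and less transcript per cell cannot be told apart.

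Transferrin is also made by oligodendrocytes and by yolk sac, so markers of both were read beside it. Of 10 glial markers 6 were above the receptor level in at least 1 fraction. Of the 10, 1 rose and 0 fell (10%, against 6.0% of all genes). Cnp, a myelin enzyme gene, rose (0.33 ± 0.08, adjusted p = 0.0383 by limma), a call lost when any 1 of the 6 samples was left out. The myelin genes Mbp and Mog, of which Mog was not above the level, differed by 0.10 ± 0.08 and -0.07 ± 0.08. The summed linear level of the glial list ran from 221 to 244 in Nkx2-1 high and from 201 to 225 in Nkx2-1 low. The yolk sac list is given further on. The part of either cell type in the Trf difference was not tested.

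Of the 3 liver regulators, Prox1 and Cebpa were above the receptor level and Onecut1 was not, and none differed between the fractions by the test. Prox1, a homeobox gene of hepatoblasts, lymphatic endothelium and neurons, read 5.40, 5.49 and 5.74 in Nkx2-1 high and 5.28, 5.31 and 5.42 in Nkx2-1 low. The ranges overlapped slightly, and the difference was 0.21 ± 0.10 (95% interval -0.02 to 0.43, limma adjusted p = 0.309). Cebpa, whose factor drives liver and fat cell genes, read 5.08, 5.18 and 5.18 against 5.15, 5.31 and 5.11 (-0.04 ± 0.08). Onecut1, an early factor gene of liver and pancreas, had means of 4.21 and 4.04, not above the level. A row's position against the receptor rows depends also on its own probes, so levels of different genes are not compared with one another.

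**Figure D1:**
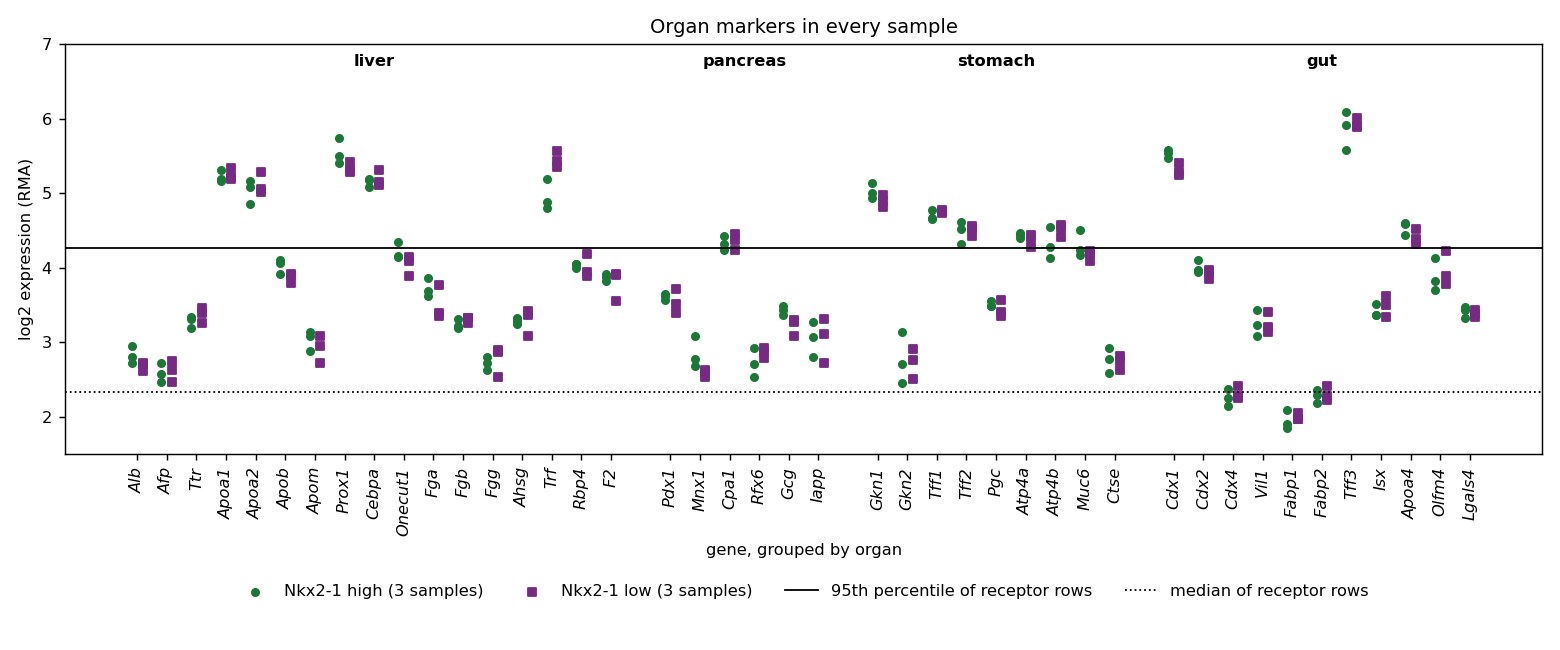
Log2 expression (vertical axis) of the 43 measured organ markers in each of the 3 Nkx2-1 high samples (green circles) and 3 Nkx2-1 low samples (purple squares), by organ. The solid line is the 95th percentile of the receptor rows (4.27) and the dotted line their median (2.34). The green and purple points of Trf are apart, and Fabp1, Fabp2 and Cdx4 lie around or below the dotted line.

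Of the 6 measured pancreas members, Cpa1 alone had a mean above the receptor level. Pdx1, the gene of the master regulator of pancreas and duodenum, read 3.57, 3.65 and 3.62 in Nkx2-1 high and 3.39, 3.52 and 3.71 in Nkx2-1 low, overlapping. Rfx6, an endocrine factor gene, had means of 2.72 and 2.86, and amylin (Iapp) of 3.05 and 3.05. Cpa1, a digestive enzyme gene also used by early pancreas progenitors, was just above the level, with 4.32, 4.24 and 4.43 against 4.24, 4.45 and 4.37, so that 2 of its 6 values were below 4.27. The fractions of Cpa1 overlapped (-0.03 ± 0.09, limma adjusted p = 0.908).

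In Mnx1 and Gcg the fractions did not overlap, at levels not above the receptor rows. Mnx1, a homeobox gene of pancreas buds and of spinal motor neurons, read 2.78, 2.68 and 3.08 in Nkx2-1 high and 2.53, 2.63 and 2.59 in Nkx2-1 low (0.26 ± 0.11, limma adjusted p = 0.221). Gcg, the glucagon gene, read 3.44, 3.37 and 3.48 against 3.30, 3.08 and 3.27 (0.21 ± 0.09, limma adjusted p = 0.205). Neither passed the test, and no fold is given at this level. In all, fractions did not overlap for 4 of the 43 members, against 24.7% of all genes, and 4 had an unadjusted p under 0.05, against 19.0%. The 4 were the same in both counts, namely Trf, Mnx1, Gcg and Cdx1.

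Stomach markers lay on both sides of the level. Of the 9 genes, 6 had a group mean above 4.27, but none had one above the 99th percentile of the receptor rows, 5.35. Gkn1, which encodes a secreted protein of the stomach surface, read 5.01, 4.93 and 5.14 in Nkx2-1 high and 4.82, 4.89 and 4.98 in Nkx2-1 low (0.13 ± 0.09, limma adjusted p = 0.485). Its partner Gkn2 was not above the level, with means of 2.76 and 2.73. The mucus peptide genes Tff1 and Tff2, which neighbour Tff3 in the genome, had means of 4.70 and 4.75, and of 4.49 and 4.51. Both subunits of the acid pump of parietal cells were slightly above the level, Atp4a at 4.43 and 4.37 and Atp4b at 4.32 and 4.51. Muc6, a mucin gene of the gastric glands, was above it only in Nkx2-1 high (4.31 and 4.17), where 2 of 3 samples were under 4.27. The enzyme genes Pgc (3.51 and 3.44) and Ctse (2.77 and 2.73) were not above it. Differences of the 9 ran from -0.19 ± 0.11 (Atp4b) to 0.14 ± 0.10 (Muc6), and none passed the test.

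Gut markers ranged widely against the receptor rows, and 3 of 11 were above the level. Tff3, a mucus peptide gene of goblet cells that other epithelia also use, read 5.58, 5.91 and 6.09 in Nkx2-1 high and 5.89, 6.004 and 5.90 in Nkx2-1 low. The Nkx2-1 high samples enclosed the Nkx2-1 low ones, and the difference was -0.07 ± 0.12. Cdx1, a homeobox gene of the intestine and of the posterior embryo, read 5.54, 5.47 and 5.58 against 5.25, 5.41 and 5.28. All 3 Nkx2-1 high samples were the higher ones, but the difference of 0.22 ± 0.08 did not pass (95% interval 0.04 to 0.39, limma adjusted p = 0.169). Its relative Cdx2, the main determinant of intestinal identity, was under the level, with 3.95, 4.10 and 3.97 against 3.97, 3.95 and 3.85, and Cdx4, a gene of the tailbud, had means of 2.26 and 2.32.

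Of the enterocyte products Apoa4 was above the receptor level, and the others ranged from below the median of the receptor rows to well above that median. Fabp1 (1.95 and 1.998), Fabp2 (2.28 and 2.31) and Cdx4 were the 3 members with both means below that median of 2.34. Villin (Vil1), a protein of the brush border, had means of 3.25 and 3.25, the homeobox gene Isx of 3.41 and 3.49, the lectin gene Lgals4 of 3.41 and 3.39, and the stem cell gene Olfm4 of 3.89 and 3.97. None of these was above the level. Apoa4, a lipoprotein gene near Apoa1 in the genome, was, with 4.44, 4.60 and 4.59 against 4.52, 4.38 and 4.32 (0.14 ± 0.09, limma adjusted p = 0.468). Of all 43 members, 4 had a group mean above the 99th percentile of the receptor rows, namely Prox1, Trf, Cdx1 and Tff3. Of all 19938 genes, 9980 had one above it.

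**Figure D2:**
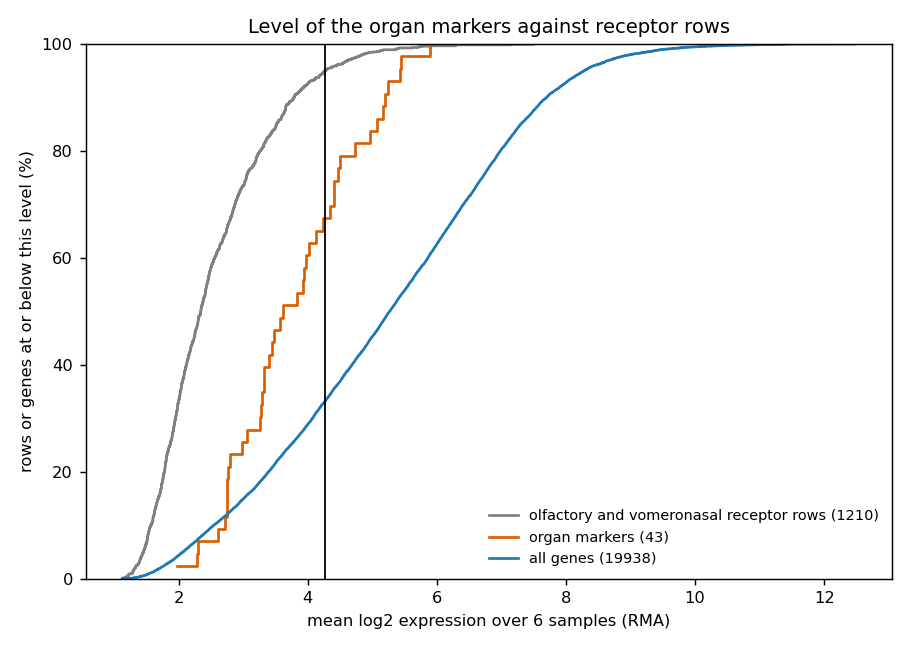
Cumulative share of rows or genes (vertical axis, percent) at or below a mean log2 expression over the 6 samples (horizontal axis), for 1210 receptor rows (grey), the 43 organ markers (orange) and all 19938 genes (blue). At the black line, which marks 4.27, the curve of the organ markers lies between that of the receptor rows and that of all genes.

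How closely the fractions agreed can be read from the intervals. For 42 of the 43 members the 95% interval of the difference lay within 0.5 of 0 on the log2 scale, Trf being the exception. For all 43 it lay within 1. Of all 19938 genes, 17237 had an interval within 0.5 of 0 and 19585 had one within 1. Of the 43 differences, 21 were above 0 and 22 below, with a median of 0.00, beside -0.01 for all genes. The median SE was 0.09, as over all genes. Near the background, array values compress differences, so the interval of a dim row limits the array value and not the fold change of the transcript.

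**Figure D3:**
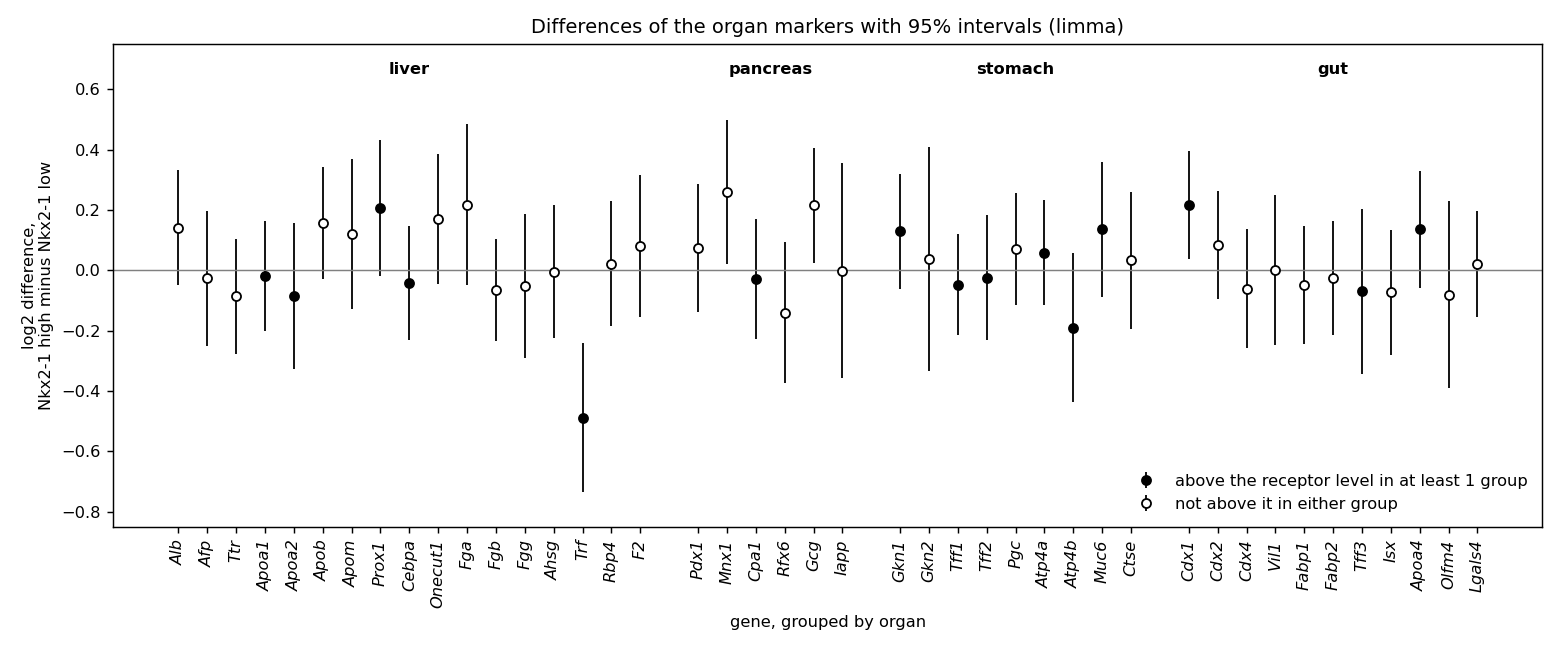
Log2 difference, Nkx2-1 high minus Nkx2-1 low (vertical axis), of each organ marker with its 95% interval from limma. Filled circles are genes with a group mean above 4.27, open circles the others. The interval of Trf ends at -0.24, and those of Mnx1, Gcg and Cdx1 also leave out 0 without passing the adjusted test.

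Values of the members varied with the sample as well. Of the 3 Nkx2-1 high samples, replicate 3 held the highest value for 24 of the 43 members, replicate 2 for 15 and replicate 1 for 4. In Nkx2-1 low the counts were 20, 18 and 5 for replicates 3, 2 and 1. Among all genes, replicate 1 held the highest value of its group for 33.8% (Nkx2-1 high) and 30.8% (Nkx2-1 low), and among receptor genes for 27.6% and 16.8%. The number of members above the 95th percentile of the receptor rows of the same array was 13 or 14 in every sample.

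Of 17 measured factors that endoderm organs share, 13 were above the receptor level (76.5%), where 67.8% of all genes were. The pioneer factor gene Foxa2 had means of 5.74 ± 0.09 (SD, n = 3) and 5.78 ± 0.18 (SD, n = 3) in Nkx2-1 high and Nkx2-1 low, and Hnf4a, a nuclear receptor gene of liver and gut, of 4.92 ± 0.30 and 4.96 ± 0.12. Foxa1 varied most, with 4.84, 5.52 and 6.01 in Nkx2-1 high and 5.80, 5.70 and 6.09 in Nkx2-1 low. Foxa3, Hnf4g, Sox17 and Nr1h4 were not above the level. Nkx2-1 itself read 7.62, 7.77 and 7.77 against 5.42, 5.23 and 5.34, the difference on which the cells were sorted.

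Among these regulators 1 rose and 1 fell (11.8%, against 6.0% of all genes). Hhex, a homeobox gene of liver, thyroid and endothelium, read 5.95, 5.54 and 5.55 in Nkx2-1 high and 4.58, 5.02 and 4.49 in Nkx2-1 low, with no overlap (0.98 ± 0.15, 1.98-fold, limma adjusted p = 0.00538). Nr5a2, a nuclear receptor gene of liver, pancreas and gut, fell from 4.82, 4.83 and 4.86 in Nkx2-1 low to 4.42, 4.52 and 4.45 in Nkx2-1 high (-0.37 ± 0.07, 1.30-fold, limma adjusted p = 0.0156). The groups of Nr5a2 lay apart, but its limma adjusted p rose to 0.0602 when replicate 1 of Nkx2-1 high was left out, and to 0.0570 and 0.0556 when replicate 2 or 3 of Nkx2-1 low was. Over the 17, the median difference was -0.03.

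**Figure D4:**
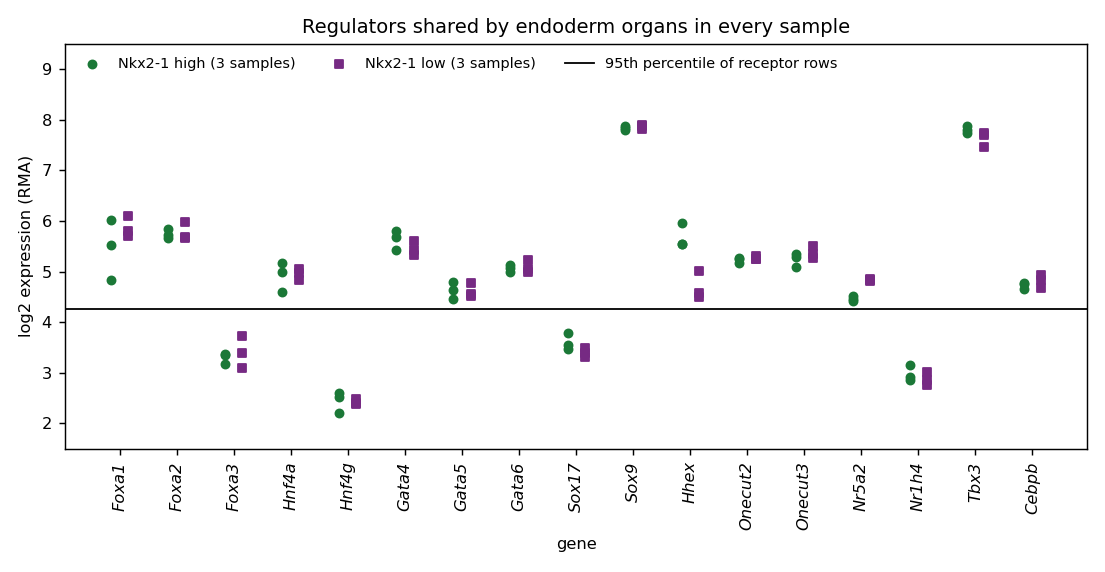
Log2 expression (vertical axis) of 17 regulators shared by endoderm organs in each of the 3 Nkx2-1 high (green circles) and 3 Nkx2-1 low samples (purple squares). The line is the 95th percentile of the receptor rows (4.27). Hhex and Nr5a2 are separated between the fractions in opposite directions, and Foxa3, Hnf4g, Sox17 and Nr1h4 lie under the line.

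Of 68 further genes of the 4 organs, 34 were above the receptor level (50%), against 34.9% of the members and 67.8% of all genes. Of the 68, 4 rose and 4 fell (11.8%), where 6.0% of all genes were called and 1 of the 43 members was. Of 21 more liver genes 6 were above the level, 0 rose and 1 fell, Dlk1, a gene of hepatoblasts and of many mesenchymal cells (-0.36 ± 0.09, limma adjusted p = 0.0454). Of the fits that leave out 1 sample, Dlk1 kept the call only in the one without Nkx2-1 low replicate 1 (adjusted p up to 0.166), and it lost it with cyclic loess (0.107). A pair of plasma protein genes of that list were singled out after their values were seen. Vtn, the vitronectin gene, read 4.72, 5.14 and 5.24 in Nkx2-1 high and 5.54, 5.81 and 6.90 in Nkx2-1 low, and Itih2 read 4.18, 4.08 and 4.24 against 4.54, 4.55 and 5.14. Both sets were apart and were highest in Nkx2-1 low replicate 3, but neither passed (limma adjusted p = 0.0766 and 0.0556). Vtn passed in 4 of 14 alternative fits and Itih2 in 6 of 14, median-centred arrays and cyclic loess among the latter.

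Of 19 other pancreas genes 12 were above the level, 3 rose and 1 fell. The 3 were Isl1 (1.33 ± 0.15), Sst, the somatostatin gene (1.11 ± 0.16), and Nkx6-1 (0.87 ± 0.10), which neurons and other tissues also express. Neurod1 fell at levels not above the receptor rows (limma adjusted p = 0.0141, and 0.0707 with replicate 2 of Nkx2-1 high left out, or 0.0535 and 0.0517 with replicate 1 or 3 of Nkx2-1 low left out). The second insulin gene of the mouse, Ins2, read 4.27, 4.27 and 4.37 against 4.35, 4.27 and 4.46, next to the line and overlapping. Also above the level without passing the test were the beta-cell factor gene Mafa (means of 5.67 and 5.49 in Nkx2-1 high and Nkx2-1 low), the pancreatic polypeptide gene Ppy (5.60 and 5.61), the factor genes Pax4 (4.81 and 4.77), Insm1 (4.97 and 5.18) and Nkx2-2 (4.42 and 4.28), the glucose transporter gene Slc2a2 (4.74 and 4.77), and the enzyme genes Ctrb1 (4.82 and 4.75) and Cela1 (4.39 and 4.33). Beside Neurod1, those not above it were Ptf1a, Bhlha15, Neurog3, Cpb1, Cel and Pcsk1.

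Of 13 other stomach genes 10 were above the level, 0 rose and Barx1 fell, a homeobox gene of stomach mesenchyme (-0.63 ± 0.10, 1.54-fold, limma adjusted p = 0.00552). None of the others passed. Above the level were Sox2 (means of 6.31 and 6.20 in Nkx2-1 high and Nkx2-1 low), Klf5 (6.58 and 6.51) and Ghrl (6.06 and 5.91). So were Gast (5.365 and 5.25), Chga (5.39 and 5.50), Cldn18 (5.08 and 5.18), Sox21 (4.85 and 5.12) and Foxq1 (4.75 and 4.72). Muc5ac (4.36 and 4.28) was just above the level, and Muc1, Vsig1 and Anxa10 were not above the level. Of 15 other gut genes 6 were above it. Klf4, a zinc-finger gene of many epithelia, rose (0.65 ± 0.09, limma adjusted p = 0.00237), and Lgr5, a Wnt-responsive stem cell gene, fell (-1.16 ± 0.18, 2.24-fold, limma adjusted p = 0.00568). The other 4 above the level were the aminopeptidase gene Anpep (means of 5.38 and 5.62), the lipid transfer gene Mttp (5.06 and 5.14) and, in Nkx2-1 high alone and next to the line, the lactase gene Lct (4.27 and 4.09) and Elf3 (4.27 and 4.26). Not above it were Muc2, Cdh17, Sis, Krt20, Slc5a1, Reg3g, Lyz1, Ascl2 and Atoh1.

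Markers of the other tissues that share members were read in the same way. Of 15 genes of yolk sac endoderm and its basement membrane 13 were above the level, 1 rose and 4 fell (33.3%, against 6.0% of all genes). Lamc1, a laminin gene, rose (1.13 ± 0.08), and Slc39a8 (-1.17 ± 0.15), Pth1r (-0.69 ± 0.10), Col4a1 (-0.64 ± 0.08) and Col4a2 (-0.59 ± 0.08) fell. Of the receptor pair of visceral endoderm, Amn stood at 5.39 and 5.38 and Cubn at 3.54 and 3.57, the latter not above the level. Of the 15 differences 11 were below 0, as were 10450 of the 19938 over all genes. The summed linear level of the list ran from 2150 to 2473 in Nkx2-1 high and from 2017 to 2071 in Nkx2-1 low, but that order rested on Lamc1. Without it the sum ran from 1203 to 1427 in Nkx2-1 high and from 1559 to 1591 in Nkx2-1 low.

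In 5 further tissue lists 5 of 54 genes rose and 5 fell (18.5%), against 6.0% of all genes. Of 11 choroid plexus genes, 6 of them above the level, Sostdc1 rose (0.62 ± 0.16) and Msx1 fell (-1.59 ± 0.11). The Sostdc1 call was kept without Nkx2-1 low replicate 3 and lost without each other sample (limma adjusted p up to 0.154). Otx2 was higher in Nkx2-1 high with no overlap, but did not pass (1.04 ± 0.28, limma adjusted p = 0.0664). Kcnj13, Cldn2, Kl, Slc4a5 and Tmem72 were not above the level. The differences of these 11 were above 0 in 4 and below 0 in 7. Of 11 endothelial genes Flt4 (1.10 ± 0.08) and Tek (at least 1.77-fold) rose. The differences of the 11 were above 0 in 7 and below 0 in 4. Those 4 were Tie1 (-0.19 ± 0.08), Cdh5 (-0.17 ± 0.10), Pdpn (-0.12 ± 0.13) and Kdr (-0.08 ± 0.09). Of these 11, 9 were above the level, among them Emcn (6.62 and 6.04), Kdr (5.19 and 5.27) and, in Nkx2-1 high alone, Pecam1 (4.43 and 4.10), and Lyve1 and Cdh5 were not. Of 9 motor neuron genes, 7 of them above the level, Isl1, which is also on the pancreas list, and Slc5a7 (1.13 ± 0.13) rose. The differences of these 9 were above 0 in 3 and below 0 in 6. Among the 6 were the cholinergic genes Slc18a3 (-0.16 ± 0.16) and Chat (-0.12 ± 0.10), the latter not above the level. Among 11 fat and myeloid genes 2 were above the level, Plin1 (means of 5.22 and 5.19) and Cd68 (6.27 and 5.99). Of the 11, 0 passed by limma, with 0 at an unadjusted p under 0.05. Of 12 genes of posterior mesoderm, tissue in which Cdx genes act, 9 were above the level and 4 fell. These were Hoxd10, Hoxc10, Hoxa9 and Hoxa10, with differences from -0.69 to -0.44. Hoxc10 (means of 3.74 and 4.25) and Hoxa10 (3.41 and 3.84) were not above the level. In all, 8 of the 12 differences were below 0 and 4 above, among the latter Hoxb9 (0.21 ± 0.08, limma adjusted p = 0.186). Hoxc10 kept the call without any 1 sample. Hoxa9 kept it only without Nkx2-1 low replicate 1 and Hoxd10 only without Nkx2-1 high replicate 2 or Nkx2-1 low replicate 3. Hoxa10 lost it without Nkx2-1 high replicate 1 or replicate 1 or 2 of Nkx2-1 low. The part of these cell types in the levels of Ttr, Prox1, Mnx1, Cdx1 or Cebpa was not tested.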

How the data were processed

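Total RNA of 6 sorted samples was amplified (WT-Ovation Pico) and hybridised to arrays with a biotin label, per the labels' protocols. The values are log2 expression values that the authors deposited, made with RMA per the submitters' processing notes. The log2 scale was taken from RMA and the range of the values. For RMA's version and the genome build: not given in the sources used here. Array medians ran from 4.98 to 5.06. Precision is limited by how few arrays there are. The labels' protocols call the samples biological replicates.

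GEO's platform annotation gave a single symbol for 21789 of 29011 rows, more than 1 for 1621 and no symbol for 5601. The row with the highest mean was used for each of 19938 genes. All 43 measured members matched RefSeq (GRCm38.p6) by Entrez ID. A gene is called above the level where a group mean exceeds the 95th percentile of the receptor rows; about 5.04% of those rows do so themselves. A fold is given only above that level, and as "at least" where 1 fraction lies below it.

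The fit used limma 3.58.1 (R 4.3.3) with its functions lmFit and eBayes over all genes and samples and only the group in the model, and was tested on simulated data. A gene "rose" where it was higher in Nkx2-1 high, and "fell" where it was lower, at a Benjamini-Hochberg adjusted p under 0.05 over 19938 genes, and ± after a difference is the SE. Summed linear levels are sums of 2 to the power of the log2 values. The members and the lists were chosen with earlier results of these data known. Named are all members and, of each other list, up to 4 called genes with the largest difference, or else the 2 brightest; other names were chosen after their values were seen. Figures were drawn with matplotlib 3.10.9.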

Additional observations from a re-analysis of the deposited data

How the results depend on the processing

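Of 574 comparisons of a member's call with an alternative over 14 other fits, 568 were on the same side of the threshold, and the 6 others were all Trf. The count of members called lower was 1 and became 0 at a threshold of 0.01 and 0 without both samples numbered 3 (Trf -0.46, adjusted p = 0.139), and ranged from 0 to 1 when 1 sample was left out. The adjusted p of Trf ran from 0.00888 to 0.139 over the alternatives. The count of members called higher was 0 in every fit. A total of 1196 changed genes became 507 at a threshold of 0.01 and ranged from 624 to 1086 when 1 sample was left out. The 15 members above the level became 4 with the 99th percentile of the receptor rows, 21 with the 90th, 14 with olfactory receptor rows alone (level 4.35) and 13 when all 3 samples of a fraction had to exceed the percentile of their own array. They were 14 to 15 when 1 sample was left out, and 15 with the percentile over single values, which was chosen after seeing the data. The sign of the difference was the same in every alternative for 22 members, and the 21 others had differences of at most 0.12 in size. With the replicate number as a block, 1470 genes and 1 member, Trf (adjusted p = 0.00888), were called. Deviations of same-numbered samples of the fractions had r of 0.18, -0.00405 and 0.28 across genes, which are not independent. Differently numbered samples had r from -0.27 to 0.15. Whether the number pairs the samples cannot be told from these values. Dim rows limit what these arrays can show: absence of a transcript cannot be read from a level at the receptor rows.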
